A study of Mus musculus with 6 samples.

Results

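STAT3 signaling was examined through the RNA of 10 genes in control D4M-3A cells and in cells with a CRISPR-Cas9 knockout of Nfkbiz, whose RNA was reduced but still present: Stat3 itself, the kinases Jak1 and Jak2, the inhibitors Socs1, Socs2, Socs3 and Cish, and the STAT3-inducible genes Pim1, Pim3 and Bcl6. The genes were chosen by name, with earlier results of these data known. All 10 were found among the 43043 genes listed, and all 10 were among the 14419 genes that passed the filter on low counts. In Nfkbiz KO cells Socs3, Stat3, Cish, Jak2, Bcl6 and Pim3 were lower than in Ctrl cells and Socs2 was higher, whereas Jak1, Socs1 and Pim1 did not pass the test.

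D4M-3A is a mouse melanoma cell line. RNA was sequenced from 3 Ctrl samples, transduced by lentivirus with an empty CRISPR-Cas9 construct, and from 3 Nfkbiz KO samples, transduced with a CRISPR-Cas9 construct against Nfkbiz, the gene of the nuclear NF-κB co-regulator IκBζ. The paper checked the depletion of IκBζ protein by immunoblot, and the level of Nfkbiz RNA does not measure it. Both groups went through puromycin selection and grew in RPMI medium with FCS, and no cytokine or drug is named for either. The 3 samples of each group came from independent experiments, but whether the Nfkbiz KO cells were 1 clone or a pool is not given in the sources used here. The comparison asks how IκBζ, which these cells contain without stimulation, bears on their transcripts.

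The samples held between 32219900 and 44927203 reads counted on genes, of which 96.5% to 96.9% mapped uniquely. Counts of the 3 Ctrl samples differed more among themselves (chi-square over degrees of freedom, 27.8 to 71.4) than those of the 3 Nfkbiz KO samples (3.53 to 6.24). Ctrl replicate 1 was in both of the Ctrl pairs that differed most. The level of Nfkbiz was 69.2 ± 5.87 TPM for Ctrl against 34.9 ± 0.245 TPM for Nfkbiz KO (mean ± SD, n = 3 each), where TPM is a transcript's share of all transcripts, corrected for its length. The melanocyte lineage genes Sox10 and Tyr had no reads, Tyrp1 and Dct had 1 read each, and Mlana had 7 in all 6 samples together. Summed over the 7 lineage markers, levels were 1.11 to 1.73 TPM in Ctrl and 1.27 to 1.68 TPM in Nfkbiz KO, so that the label melanoma was not borne out by pigment cell genes. The summed dedifferentiated melanoma markers Axl, Ngfr and Sox9 reached 716 to 852 TPM in Ctrl and 925 to 941 TPM in Nfkbiz KO, nearly all of it Axl. On counts, Axl did not pass the test (log2 fold change 0.14, edgeR, Benjamini-Hochberg-adjusted p = 0.089). Sox9 was higher (0.27, edgeR, Benjamini-Hochberg-adjusted p = 0.036), though the groups overlapped, and Ngfr, with 8 reads over all samples, was not tested. Markers of immune cells added up to at most 0.241 TPM in any sample, with Cd3e at 0 reads. The 2 endothelial markers added up to 0.531 to 0.796 TPM in Ctrl and 1.31 to 1.83 TPM in Nfkbiz KO, through Cdh5 (log2 fold change 1.34, edgeR, Benjamini-Hochberg-adjusted p = 0.0023), and the part of such low levels in the results below was not tested. In bulk RNA, fewer cells with a transcript and less of it per cell cannot be told apart.

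Janus kinases sit on cytokine receptors without enzymatic activity of their own, and phosphorylate STAT proteins once a ligand such as IL-6 brings the receptor chains together. Phosphorylated STAT3 pairs up, enters the nucleus and induces genes for survival, growth and inflammation, among them PIM kinases, and also Socs3, whose protein shuts the receptor off again. In melanoma, STAT3 is active in many tumors. The activity itself is a matter of phosphorylation, which RNA does not measure.

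STAT dimers bind a palindrome written TTCNNNGAA, which reads the same on both strands. Within 250 bases upstream of the start of the canonical transcript, 3 of the 10 genes held it (30%), against 806 of 12426 tested protein-coding genes (6.49%). Within 1000 bases, it was found for 5 of the 10 genes (50%) and for 3368 of all (27.1%). The same search found it within 250 bases in 6.28% of the genes that were lower in Nfkbiz KO and in 6.78% of those that were higher. In gene lists of the same pathway, it was found within 250 bases for 0 of 12 family relatives and 0 of 8 other brakes. The same held for 1 of 12 ligands (8.33%), 1 of 19 receptor chains (5.26%) and 1 of 21 other STAT3 target genes (4.76%). Within 1000 bases it was found for 3 relatives (25%), 4 brakes (50%), 1 ligand (8.33%), 6 receptor chains (31.6%) and 3 targets (14.3%). Lists this small cannot show whether the shares of the 10 genes are particular to them. Only the 1000 bases upstream of each canonical start were searched. The 6 sites shown are all the matches found there for the 10 genes. They are given 5′ to 3′ on the strand of the gene, with the palindrome in capitals and 10 bases on either side.
Jak2, chr19:29228529-29228557, plus strand: aagcggtcccTTCGCAGAAgtggtggtta
Socs3, chr11:117860328-117860356, minus strand: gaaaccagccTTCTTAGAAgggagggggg
Bcl6, chr16:23807702-23807730, minus strand: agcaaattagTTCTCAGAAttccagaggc
Bcl6, chr16:23808548-23808576, minus strand: tgtatttggcTTCACAGAAtgttgtaaca
Cish, chr9:107172715-107172743, plus strand: cctacccataTTCCAAGAAactggcttct
Socs2, chr10:95253788-95253816, minus strand: agaacagtatTTCAAAGAAaaatggttat

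Counted from the first base of the palindrome to the start of transcription, the sites lay at 138 bases for Jak2, 223 for Socs3, 118 and 964 for Bcl6, 500 for Cish and 834 for Socs2. The stretches shown for Socs3 and Socs2 overlapped an untranslated exon of another annotated transcript of the same gene. The others lay upstream of all transcripts of their gene. Those of Jak2 and of Bcl6 at 118 bases overlapped exons of Gm59364 and Gm49518 on the opposite strand. All coordinates are from GRCm39 with the GENCODE M39 annotation. No match was found in these windows for Stat3, Jak1, Socs1, Pim1 and Pim3. Of the 5 genes with a site, Socs3, Cish, Jak2 and Bcl6 were lower and Socs2 was higher in Nfkbiz KO. A match describes the letters only, since binding was not measured here.

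Tested by edgeR's quasi-likelihood method at a Benjamini-Hochberg-adjusted p of up to 0.05, 6 of the 10 genes were lower in Nfkbiz KO, where 18.4% of all tested genes were lower. One gene was higher, where 18.2% of all tested genes were, and 3 did not pass. The median log2 fold change of the 10 was -0.31, against -0.02 over all genes tested. In 7 of the 10 the normalized counts (log2 CPM, counts scaled to the same depth) of the 3 Ctrl and 3 Nfkbiz KO samples did not overlap, as in 48.4% of all genes. One gene, Socs3, passed the study's threshold (more than 2-fold, adjusted p up to 0.05, and a difference above 4, taken here in TPM), which 1.79% of all genes passed. With 1.5-fold and an adjusted p up to 0.1 as limits, 4 genes passed (Socs3, Stat3, Cish and Socs2), where 12.6% of all genes did. Without Ctrl replicate 1 or without Nfkbiz KO replicate 3, 5 of the 10 genes were lower, since Pim3 no longer passed, and Socs2 was the gene that was higher in each case. On the TPM scale (limma on log2(TPM + 1) or log2(TPM + 0.1)), 3 genes were lower, Stat3, Socs3 and Cish. There the median of the 10 was -0.17 and -0.18, and that over all genes tested 0.06 and 0.08.

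**Figure D1:**
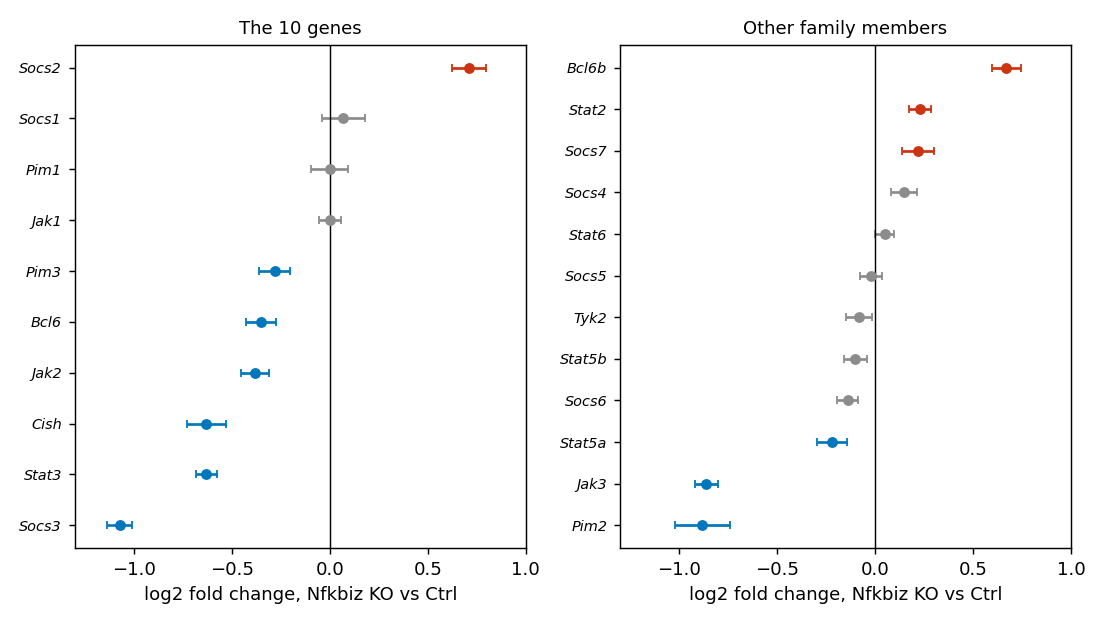
Log2 fold change of Nfkbiz KO against Ctrl (x axis) for the 10 genes (left) and for 12 tested relatives of the same families (right), from edgeR on read counts. Points are estimates, bars 1 standard error, with n = 3 samples a group, blue and red marking an adjusted p of 0.05 or less and gray the rest. Socs3 lies furthest to the left at -1.07 and Socs2 furthest to the right among the 10 at 0.71.

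Of the kinases, Jak1 and Jak2 together serve the receptor chain gp130, through which IL-6, LIF and related cytokines signal. Jak1 (chromosome 4, 101008838 to 101122487, minus strand) was at 95.7, 103 and 84.0 TPM in the Ctrl samples and at 103, 99.5 and 98.4 TPM in Nfkbiz KO replicates 1 to 3. The groups overlapped, with a wider spread in Ctrl. The log2 fold change of Jak1 was -0.00 with a 95% interval from -0.13 to 0.12 (edgeR, Benjamini-Hochberg-adjusted p = 0.98). Its sign changed to plus under other settings, up to 0.09 with limma on TPM.

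Jak2 (chromosome 19, 29228677 to 29290505, plus strand) showed 65.5, 78.1 and 59.1 TPM in Ctrl replicates 1 to 3. The 3 Nfkbiz KO samples had 58.5, 52.7 and 56.9 TPM, each below the lowest Ctrl sample, though by only a small margin. Jak2 was 23.4% lower, a log2 fold change of -0.38 (SE 0.071, edgeR, Benjamini-Hochberg-adjusted p = 0.0011), and leaving out 1 sample at a time gave values of -0.44 to -0.30. With limma on log2(TPM + 1), it was -0.26 and did not pass (Benjamini-Hochberg-adjusted p = 0.13). The ratio of Jak2 to Jak1 in TPM was 0.684, 0.755 and 0.703 in the Ctrl samples and 0.565, 0.530 and 0.578 in the Nfkbiz KO samples, without overlap.

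Stat3, the transcription factor of the pathway, lies on chromosome 11 from 100775924 to 100830450 on the minus strand. Its level was 47.3, 48.0 and 42.4 TPM in Ctrl and 32.2, 32.2 and 30.7 TPM in Nfkbiz KO replicates 1 to 3. All 3 Nfkbiz KO samples were below all 3 Ctrl samples, and the gap of 14.2 TPM between the means (45.9 ± 3.08 and 31.7 ± 0.867 TPM, SD, n = 3 each) exceeded both SDs. Stat3 was thus 35.4% lower, at a log2 fold change of -0.63 (SE 0.053, edgeR, Benjamini-Hochberg-adjusted p = 1.6e-06) with a 95% interval from -0.75 to -0.52. In the same direction, 1051 tested genes (7.29%) had a larger change. The exact permutation test, two-sided, gave p = 0.1, which is as low as 3 against 3 samples can reach, as it did for each of the 7 genes without overlap. Stat3 kept its direction and passed under all 14 other settings, from -0.66 to -0.52. It shares 142 bases with its neighbour Stat5a on the opposite strand, and reads of both strands were counted. Stat5a had 3660 reads over all samples and Stat3 25470. The noncoding gene Gm46295, also on the opposite strand, shares 1241 bases with Stat3 and had no count here. Opposite-strand noncoding genes without a count also overlap Jak2, Socs1, Socs2, Socs3, Cish and Bcl6. What such genes add to the counts was not tested.

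The SOCS genes and Cish encode proteins that bind activated receptors or kinases and block them. Socs3, the member that acts on gp130 and answers to STAT3, was the most abundant of the 10 transcripts in Ctrl, at 130, 127 and 127 TPM in replicates 1 to 3. In Nfkbiz KO it was at 69.0, 65.9 and 60.5 TPM, and no sample came near the Ctrl values. Mean levels were 128 ± 1.66 TPM for Ctrl and 65.1 ± 4.33 TPM for Nfkbiz KO (± SD, n = 3 each). This was a log2 fold change of -1.07 (SE 0.063, edgeR, Benjamini-Hochberg-adjusted p = 8.1e-08), 2.1-fold lower, with a 95% interval from -1.21 to -0.93. A larger decrease was found in 480 tested genes (3.33%). With limma on TPM Socs3 was lower as well, but its change of less than 2-fold no longer passed the study's threshold, which then no gene of the 10 did. Socs3 spans chromosome 11 from 117856905 to 117860898 on the minus strand, with a STAT palindrome 223 bases before its canonical start.

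Socs1, the closest counterpart of Socs3 and an inhibitor of interferon and IL-6 signaling, did not pass the test. Its level was 20.7, 16.1 and 15.9 TPM in Ctrl and 22.3, 20 and 18.3 TPM in Nfkbiz KO replicates 1 to 3. The groups overlapped, as Ctrl replicate 1 was above Nfkbiz KO replicates 2 and 3. For Socs1 the log2 fold change was 0.07, with a 95% interval from -0.17 to 0.31 (edgeR, Benjamini-Hochberg-adjusted p = 0.65), and the exact permutation test, two-sided, gave p = 0.7. The ratio of Socs3 to Socs1 in TPM was 6.28, 7.87 and 7.98 in the Ctrl samples, and 3.09, 3.30 and 3.30 in the Nfkbiz KO samples. Socs1 lies on chromosome 16 from 10600104 to 10603875 on the minus strand.

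Socs2, which restrains growth hormone signaling, was the 1 gene of the 10 that rose. It was at 3.43, 3.58 and 3.23 TPM in the Ctrl samples and at 5.42, 6.58 and 5.83 TPM in Nfkbiz KO replicates 1 to 3. Every Nfkbiz KO sample was above every Ctrl sample. Socs2 was 1.63-fold higher, a log2 fold change of 0.71 (SE 0.089, edgeR, Benjamini-Hochberg-adjusted p = 5.8e-05) with a 95% interval from 0.51 to 0.90. Values of 0.63 to 0.77 came from leaving out 1 sample at a time, and 726 tested genes (5.04%) had a larger increase. Socs2 lies on chromosome 10 from 95219523 to 95253929 on the minus strand.

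Cish, a further inhibitor of the same family that acts mainly on STAT5-linked receptors, moved the other way. It was at 4.42, 4.70 and 3.84 TPM in the Ctrl samples and at 2.93, 3.05 and 2.94 TPM in Nfkbiz KO replicates 1 to 3, again without overlap. Its log2 fold change was -0.63 (SE 0.10, edgeR, Benjamini-Hochberg-adjusted p = 0.00046), 35.3% lower, at 1627 reads over all samples, of which 95.9% mapped uniquely. Socs2 and Cish thus changed places: the ratio of Socs2 to Cish in TPM was 0.775, 0.762 and 0.841 in Ctrl and 1.85, 2.15 and 1.99 in Nfkbiz KO replicates 1 to 3. Cish spans chromosome 9 from 107173225 to 107179983 on the plus strand.

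**Figure D2:**
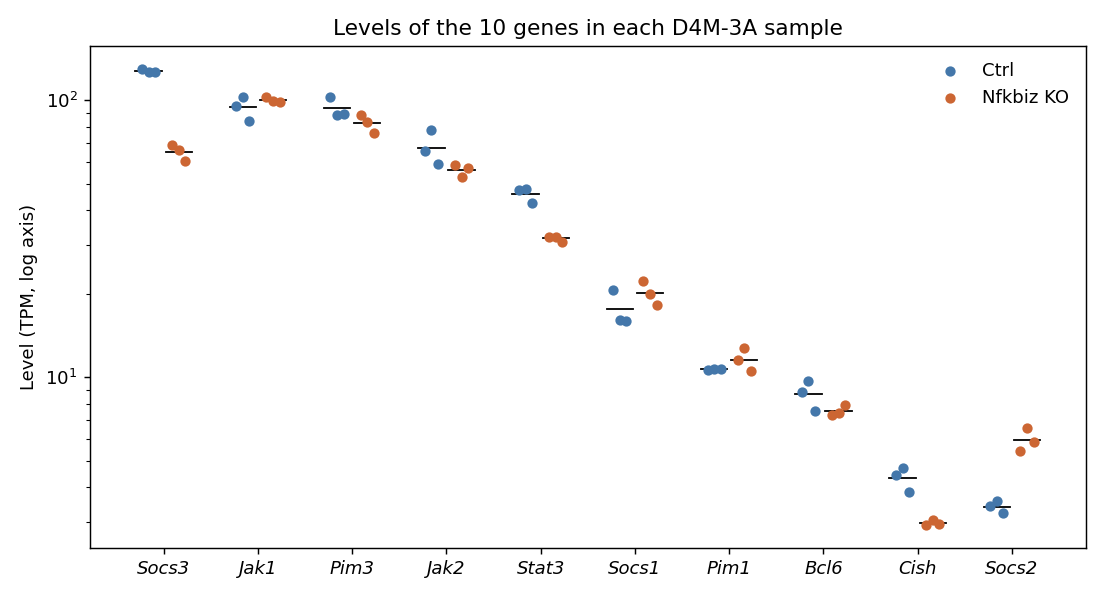
Level of the 10 genes in each of the 6 samples, in TPM on a log axis, ordered by their mean in Ctrl. Each point is 1 sample, and the black lines are group means of 3 samples. Socs3 drops from the first place at 128 TPM in Ctrl to 65.1 TPM in Nfkbiz KO, and Socs2 and Cish exchange the last 2 places.

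PIM kinases are serine-threonine kinases that are active as soon as they are made and promote survival. Pim1, the classical STAT3-induced member, was at 10.6, 10.7 and 10.7 TPM in the Ctrl samples and at 11.5, 12.7 and 10.5 TPM in Nfkbiz KO replicates 1 to 3. The groups overlapped through Nfkbiz KO replicate 3. For Pim1 the log2 fold change was 0.00, with a 95% interval from -0.21 to 0.21 (edgeR, Benjamini-Hochberg-adjusted p = 1), and its sign varied with the setting between -0.07 and 0.11. Pim1 lies on chromosome 17 from 29709581 to 29715086 on the plus strand.

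Pim3, the member of the family highest in these cells, was at 103, 88.6 and 89.1 TPM in the Ctrl samples and at 88.8, 83.6 and 75.9 TPM in Nfkbiz KO replicates 1 to 3. In TPM, Nfkbiz KO replicate 1 lay above Ctrl replicate 2, while the log2 CPM values of the groups did not overlap. Pim3 was 17.8% lower, a log2 fold change of -0.28 (SE 0.078, edgeR, Benjamini-Hochberg-adjusted p = 0.013). It did not pass without Ctrl replicate 1 (-0.21, edgeR, Benjamini-Hochberg-adjusted p = 0.058) or without Nfkbiz KO replicate 3 (-0.23, adjusted p = 0.075), so that the call rests on those samples. With limma on TPM it was -0.17 and did not pass. The level of Pim3 was 6.58 to 9.68 times that of Pim1 in every sample. Pim3 spans chromosome 15 from 88746177 to 88749929 on the plus strand.

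Bcl6 encodes a transcriptional repressor that binds many of the sites STAT proteins use. Its level was 8.86, 9.70 and 7.54 TPM in Ctrl and 7.29, 7.42 and 7.97 TPM in Nfkbiz KO replicates 1 to 3. In TPM, Nfkbiz KO replicate 3 exceeded Ctrl replicate 3, whereas log2 CPM did not overlap between the groups. The log2 fold change of Bcl6 was -0.35 (SE 0.078, edgeR, Benjamini-Hochberg-adjusted p = 0.0042), and -0.18 with limma on log2(TPM + 1), where it did not pass (Benjamini-Hochberg-adjusted p = 0.23). Bcl6 lies on chromosome 16 from 23783802 to 23807602 on the minus strand.

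By level in TPM, the order in Ctrl ran from Socs3 through Jak1, Pim3, Jak2, Stat3, Socs1, Pim1, Bcl6 and Cish down to Socs2. The ranges of neighbours overlapped for Jak1 and Pim3 and for no other pair. In Nfkbiz KO the order was Jak1, Pim3, Socs3, Jak2, Stat3, Socs1, Pim1, Bcl6, Socs2 and Cish, with no overlap between neighbours. Socs3 went from rank 1 to rank 3, and the 5 genes from Jak2 to Bcl6 kept their order. Per Stat3 transcript, Socs3 amounted to 2.75, 2.65 and 3 in the Ctrl samples and to 2.14, 2.04 and 1.97 in the Nfkbiz KO samples, without overlap.

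The genes whose pattern over the 6 samples was most like that of Stat3, by the root mean square difference of mean-centered log2 CPM, were Sh3bp4 (0.021), Peg13 (0.030) and Ccn1 (0.033). For Socs3 they were Tle2 (0.041), Trp53i11 (0.051) and Pafah1b3 (0.058). The log2 fold changes of the latter group ran from -1.15 to -1.10. These are descriptions of likeness over 6 samples in 2 groups.

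**Figure D3:**
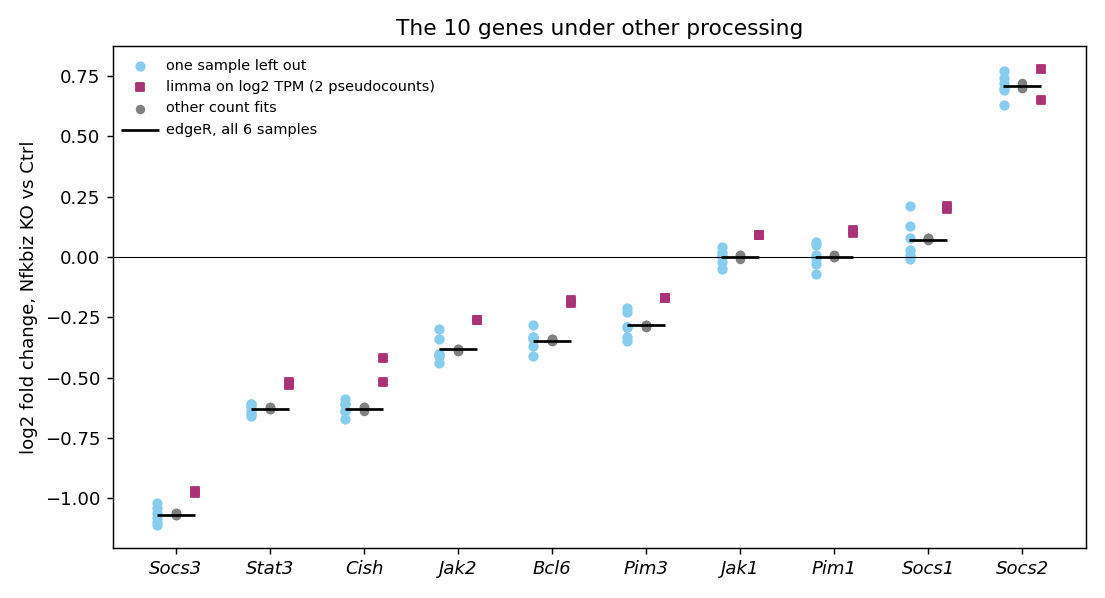
Log2 fold change of the 10 genes (y axis) in the edgeR fit of all 6 samples (black lines) and under 14 other settings: 1 sample left out (light blue), limma on log2 TPM with pseudocounts of 1 and 0.1 (purple squares), and other fits of the counts (gray). Socs3, Stat3, Cish, Jak2, Bcl6, Pim3 and Socs2 stay on their side of 0. Jak1 and Pim1 scatter around it, and Socs1 falls below it in 1 setting, at -0.01.

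Among 13 relatives of the same families, 12 were tested. In the Nfkbiz KO samples 3 were higher and 3 lower, against 18.2% and 18.4% of all tested genes. The median of the relatives was -0.05 on the log2 scale, against -0.02 over all genes, and 0.08 with limma on TPM. Stat4, at 0, 6 and 2 reads in the Ctrl samples and 0, 0 and 1 in the others, was not tested. Stat2, a transcription factor of type I interferon signaling, was at 125, 130 and 108 TPM in the Ctrl samples and at 157, 153 and 150 TPM in Nfkbiz KO replicates 1 to 3, without overlap. It was higher by a log2 fold change of 0.23 (SE 0.054, edgeR, Benjamini-Hochberg-adjusted p = 0.0058). Stat5a had a log2 fold change of -0.22 (edgeR, Benjamini-Hochberg-adjusted p = 0.037), a call lost under 10 of the 14 other settings. Stat5b at -0.10 and Stat6 at 0.05 did not pass, and limma on TPM turned Stat5b to 0.02 and put Stat6 at 0.15, past the threshold.

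Jak3, the kinase of the common gamma chain, was at 17.4 ± 1.37 TPM for Ctrl and 10.5 ± 0.372 TPM for Nfkbiz KO (± SD, n = 3 each), with a log2 fold change of -0.86. Tyk2, the kinase of interferon receptors, stood at -0.08, did not pass and was at 0.08 or 0.09 with limma on TPM. Pim2 was at 10.5, 7.95 and 8.64 TPM in Ctrl and 5.21, 5.21 and 4.85 TPM in Nfkbiz KO replicates 1 to 3, a log2 fold change of -0.88 (SE 0.14, edgeR, Benjamini-Hochberg-adjusted p = 0.00031). Of the PIM kinases, Pim2 and Pim3 were thus lower, and Pim1 did not pass the test. Bcl6b, the paralog of Bcl6, rose from 47.2 ± 3.40 to 80.3 ± 3.72 TPM (± SD over 3 samples each), with a log2 fold change of 0.67. Socs7 was higher at 0.22 (edgeR, Benjamini-Hochberg-adjusted p = 0.05), a call lost without Ctrl replicate 1 or 3 or Nfkbiz KO replicate 1 or 3 (0.13 to 0.26), with the stricter filter (0.21) and with both limma fits (0.32 and 0.34). The other SOCS relatives, Socs4, Socs5 and Socs6, did not pass. Calls of relatives that were higher numbered from 2 to 4 with each sample left out, and those that were lower from 2 to 3.

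Of 8 further brakes of the pathway, the PIAS proteins and tyrosine phosphatases, 1 was higher, 1 lower and 6 did not pass. Of all tested genes, 18.2% were higher and 18.4% lower. Pias3, which encodes a STAT3 inhibitor, was at 24.4 ± 1.16 TPM for Ctrl and 17.6 ± 1.75 TPM for Nfkbiz KO (± SD, n = 3 each), with a log2 fold change of -0.56 (SE 0.076, edgeR, Benjamini-Hochberg-adjusted p = 9.7e-05). Ptpn1, the gene of a phosphatase that acts on JAK2, was higher at 0.23 (edgeR, Benjamini-Hochberg-adjusted p = 0.013). That call was lost without Nfkbiz KO replicate 1 (0.20, edgeR, Benjamini-Hochberg-adjusted p = 0.075) and without Nfkbiz KO replicate 3 (0.23, adjusted p = 0.051), leaving 0 brakes that were higher. Without Ctrl replicate 2 there were 3, and without Ctrl replicate 1 there were 2 that were lower.

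Of 30 receptor chains that work with JAK kinases, 19 were tested. In Nfkbiz KO 12 were lower and 3 higher, against 18.4% and 18.2% of all tested genes. The median of the chains on the log2 scale was -0.25, against -0.02 over all genes. The number of lower chains was 6 without Nfkbiz KO replicate 1, and 5 without Nfkbiz KO replicate 2 or 3. With limma it was 7 on log2(TPM + 1), where the median was -0.13, and 6 on log2(TPM + 0.1). Osmr, which pairs with gp130 to form the oncostatin M receptor, changed most. It was at 4.04, 4.57 and 3.23 TPM in the Ctrl samples and at 0.744, 0.498 and 0.543 TPM in Nfkbiz KO replicates 1 to 3, far below the lowest Ctrl value. This is a log2 fold change of -2.82 for Osmr (SE 0.13, edgeR, Benjamini-Hochberg-adjusted p = 1.2e-08), and with limma it was -1.63 on log2(TPM + 1) and -2.54 on log2(TPM + 0.1).

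Lower too were Epor, the erythropoietin receptor, and Lepr, the leptin receptor, both under 1 TPM and neither past the threshold under all settings. Epor had log2 fold changes from -1.51 to -1.09 and Lepr from -0.86 to -0.71 where a left-out sample ended the call. Epor was lost without Ctrl replicate 1 or 2 or Nfkbiz KO replicate 2 or 3, and Lepr without Ctrl replicate 2 or any 1 Nfkbiz KO replicate. Il15ra, the private chain of the IL-15 receptor, rose from 2.03 ± 0.290 to 5.69 ± 0.338 TPM and Ghr, the growth hormone receptor, from 21.6 ± 2.83 to 43.3 ± 0.741 TPM (SD, n = 3 each). Their log2 fold changes were 1.41 and 0.86. Il2rg, the common gamma chain, was higher at 1.40 from 6, 9 and 14 reads in the Ctrl samples and 14, 21 and 45 in the Nfkbiz KO samples, a call that was lost without Ctrl replicate 1 or 2 or Nfkbiz KO replicate 3. On the log2(TPM + 1) scale, limma gave -0.44 for Epor, -0.22 for Lepr and 0.54 for Il2rg, whose call was lost there too. Il6st, the gene of gp130, named after its values were seen, was at 87.3 ± 12.9 TPM for Ctrl and 83.2 ± 0.879 TPM for Nfkbiz KO (± SD, n = 3 each) and did not pass (log2 fold change -0.16, edgeR, Benjamini-Hochberg-adjusted p = 0.092). Il6ra, the other chain of the IL-6 receptor, also named after its values were seen, was lower without overlap. It was at 13.6 ± 0.544 TPM for Ctrl and 10.6 ± 0.674 TPM for Nfkbiz KO (log2 fold change -0.43, edgeR, Benjamini-Hochberg-adjusted p = 0.00016).

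Of 22 ligands, 12 were tested, 6 of them lower and 4 higher, against 18.4% and 18.2% of all tested genes. Against -0.02 over all genes, the median of the ligands on the log2 scale was -0.33. This median depended on the setting, as it was -0.47 without Nfkbiz KO replicate 1, -0.18 without Nfkbiz KO replicate 2, -0.15 with no filter, and -0.10 and -0.14 with the limma fits. Each median covers the ligands tested in its setting, and with no filter these include ligands with few reads, such as Ctf1 with 30 over all samples. Il6, the best known activator of STAT3, was at 19.3, 26.5 and 21.9 TPM in the Ctrl samples and at 10.6, 8.97 and 10.4 TPM in Nfkbiz KO replicates 1 to 3. The log2 fold change of Il6 was -1.28 (SE 0.11, edgeR, Benjamini-Hochberg-adjusted p = 1.4e-06), with no overlap between the groups. The colony-stimulating factor genes Csf3 and Csf2 were lower by more, with log2 fold changes of -3.76 and -1.90. Csf3 was counted with 49, 47 and 39 reads in the Ctrl samples and 2, 2 and 6 in the others, so that its fold rests on few reads, and limma on log2(TPM + 1) gave -1.63. Il11, an IL-6 relative that also signals through gp130, rose from 4.42 ± 0.745 to 14.3 ± 1.48 TPM (SD, n = 3 each), opposite to Il6. Ifnb1, the gene of interferon beta, and Il15 were higher too, with log2 fold changes of 1.76 and 1.11 (1.13 and 1.26 with limma on log2(TPM + 1)). The number of ligands that were higher was 4 and of those that were lower 6 with every sample left out in turn.

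**Figure D4:**
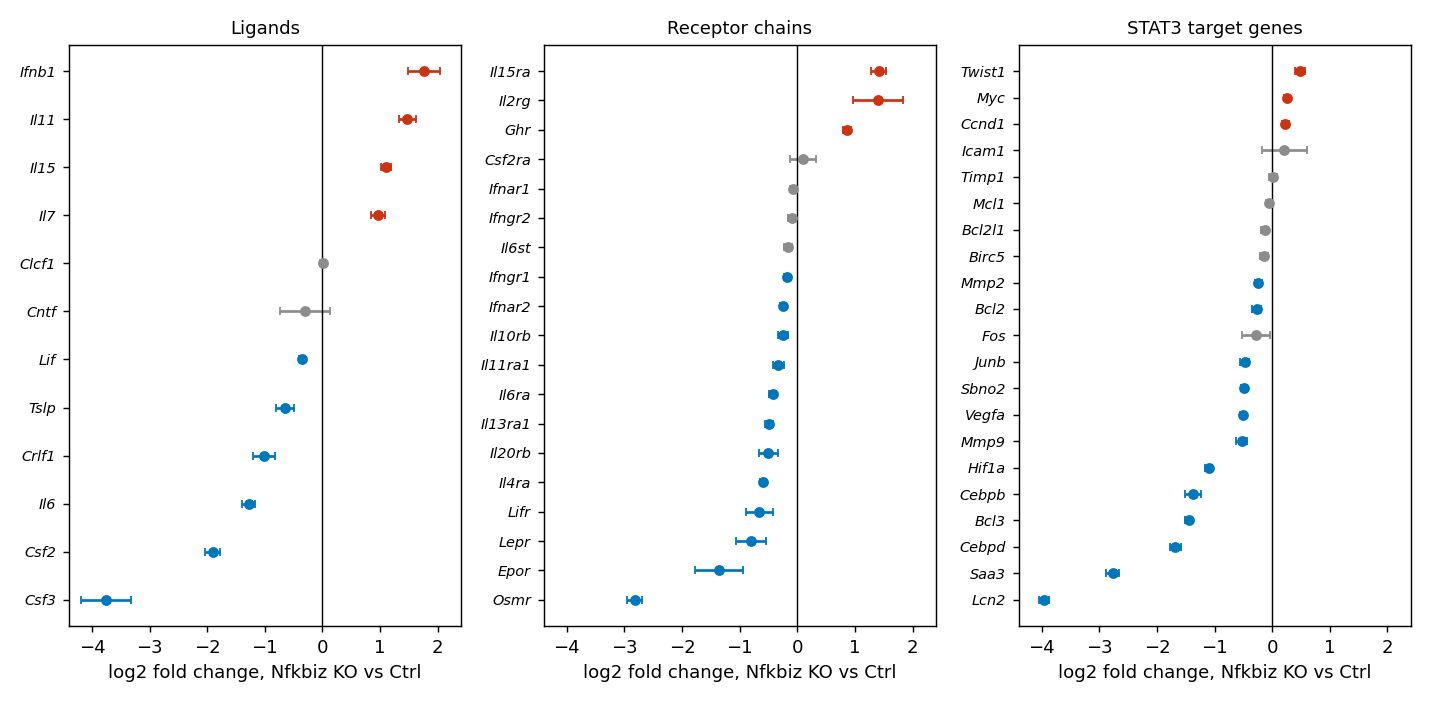
Log2 fold change of Nfkbiz KO against Ctrl (x axis) for the tested ligands (left), receptor chains (middle) and STAT3 target genes outside the 10 (right), from edgeR on read counts. Points are estimates and bars 1 standard error, n = 3 samples a group, with red and blue for an adjusted p of 0.05 or less and gray for the rest. The largest decreases are Csf3 at -3.76, Osmr at -2.82 and Lcn2 at -3.96.

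Of 26 further genes known as STAT3 targets, 21 were tested. Of these, 12 were lower and 3 higher, against 18.4% and 18.2% of all tested genes. Against -0.02 over all genes, the median of the targets on the log2 scale was -0.28. Over the genes tested in each setting, the median was -0.49 without Nfkbiz KO replicate 2 and -0.14 with limma on log2(TPM + 1). The lower ones included Lcn2, the iron-binding lipocalin 2, at 197, 237 and 238 TPM in Ctrl and 15.7, 14.6 and 15.9 TPM in Nfkbiz KO replicates 1 to 3. Its log2 fold change of -3.96 was the largest of this list, where Saa3, an acute-phase protein gene, followed at -2.77. Cebpd, a C/EBP transcription factor gene, was at -1.68. Many of these genes are NF-κB targets as well, so that the list is not specific for STAT3. The 3 genes that rose were Twist1 (0.48), a driver of mesenchymal programs, Myc (0.25) and Ccnd1 (0.23), the gene of cyclin D1, with 78% of its reads mapped uniquely. Counts of lower targets ran from 11 to 13 with each sample left out, and 3 were higher each time.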

How the data were processed

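RNA of 3 Ctrl and 3 Nfkbiz KO samples of D4M-3A cells was compared, with groups taken from the labels. The authors mapped paired-end reads with CLC Genomics Workbench, counted both strands, and deposited 1 gene table per sample. The build is GRCm39 in their methods but GRCm38 in the submitters' processing notes. Deposited read counts (total and uniquely mapped gene reads) were raw, and can include reads outside exons, since Mlana had 7 reads at 0 TPM. Deposited TPM and RPKM values were normalized by the authors for length and depth, with a decimal comma that was converted here.

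Total gene reads were tested with edgeR 4.0.16 in R 4.3.3 (TMM factors from 0.9781 to 1.011, filterByExpr at 10 reads and a total of 15, quasi-likelihood test, Benjamini-Hochberg adjustment over 14419 genes). Genes were called at an adjusted p of 0.05. The SE is the log2 fold change over the square root of F, and 95% intervals use the fit's degrees of freedom. The fit was tested on simulated data. No 2 samples were duplicates. Intervals and p-values cover the spread between 3 samples a group, and a count of 0 allows up to 3 reads, 0.0668 to 0.0931 CPM, for counting error only. Same-numbered samples were not paired, as correlations of their deviations were 0.037, -0.023 and 0.026.

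The 10 genes, the gene lists and the tests were chosen with earlier results of these data known. Named genes were the 10, Nfkbiz, up to 3 called genes of each list with the largest change in each direction, the STAT and JAK genes, and the 3 genes most like Stat3 and Socs3, 47 in all. One gene of the relatives is not reported here. Alternatives were DESeq2 1.42.0, RLE factors, no filter or at least 50 reads in 3 samples, uniquely mapped reads, limma 3.58.1 on log2(TPM + 1) and log2(TPM + 0.1), a replicate block, each sample left out in turn and other thresholds. Exon reads were not analysed here. Positions and upstream sequences are from GRCm39 and GENCODE M39, in which 97.6% of tested names were found. Figures were drawn with matplotlib 3.10.9.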

Additional observations from a re-analysis of the deposited data

How the results depend on the processing

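Under 14 other settings, Stat3, Socs3, Cish and Socs2 kept their direction and stayed past the threshold. Limma on log2(TPM + 1) or log2(TPM + 0.1) left 3 of the 10 genes lower and 0 past the study's threshold, where the cause was not tested. In the edgeR fit, a fold of at least 1.5 at an adjusted p of up to 0.1 let 4 pass. With samples left out in turn, 5 to 6 of the 10 were lower and 1 was higher. Signs turned for genes near 0, whose values ran from -0.05 to 0.04 (Jak1), from -0.07 to 0.06 (Pim1) and from -0.01 to 0.21 (Socs1) with samples left out. Jak1 was 0.01 with DESeq2, with RLE factors and with no filter, 0.09 with both limma fits, and 0.02, 0.04, 0.00 and 0.01 without Ctrl replicate 1, Ctrl replicate 2, Nfkbiz KO replicate 2 and Nfkbiz KO replicate 3. Pim1 was -0.00 with the stricter filter, uniquely mapped reads and the replicate block, and -0.01, -0.03 and -0.07 without Ctrl replicate 1, Ctrl replicate 2 and Nfkbiz KO replicate 2. Socs1 was -0.01 without Ctrl replicate 2. With limma, Stat5b was 0.02 and Tyk2 was 0.08 and 0.09. Leaving out single samples moved the brakes that were higher from 0 to 3, the brakes that were lower from 1 to 2 and the lower receptor chains from 5 to 10. Lower brakes were 2 with uniquely mapped reads and with limma, and lower receptor chains 7 and 6 with limma on log2(TPM + 1) and log2(TPM + 0.1).

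The replicate numbers did not pair the samples. With the replicate block, 6 of the 10 genes were lower and 1 was higher, as without it, and lower receptor chains were 11. Depth limits genes under 1 TPM, such as Epor, Lepr and Il2rg.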
